A study of Mus musculus with 4 samples.

Results

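The 10 genes described here encode ligands and surface molecules through which leukocytes restrain or costimulate T cells: Cd274, Pdcd1lg2, Cd80, Cd86, Cd40, Cd83, Icosl, Tnfsf4, Tnfsf9 and Tnfsf8. They were taken by name, 10 of the 31053 features in the count matrices, and followed in each myeloid and lymphoid cell type of mouse fibrosarcomas. The assay was single-cell RNA-seq with 10x Genomics 3′ v3 chemistry on live CD45+ cells (leukocytes), sorted by flow cytometry from untreated tumours on day 11 after implantation. The DKO group came from Raldh1/3 DKO tumours, labelled as double knockouts of Raldh1 and Raldh3, which are enzymes that make retinoic acid, and the control group came from Cas9 Control tumours. Both groups were measured in 2 libraries made from 2 pooled tumours apiece, so the library was the replicate and p-values measure the spread between such pools. With 2 libraries against 2, an exact permutation test cannot give a two-sided p below 0.333, so single values were tested in models fitted across all genes. The knockout is a label of the tumour and not of the sorted leukocytes, and the tumour line, the guides, the number of clones and the host strain are not given in the sources used here.

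PD-L1 (Cd274) and PD-L2 (Pdcd1lg2) bind the inhibitory receptor PD-1 on T cells, and tumour macrophages and dendritic cells are well-known carriers of both. CD80 and CD86 bind the activating receptor CD28 and, more tightly, the inhibitory receptor CTLA-4, while CD40 receives the signal of CD40 ligand from T cells and leads dendritic cells to mature. The ICOS ligand (Icosl) and the TNF superfamily ligands OX40L (Tnfsf4), 4-1BBL (Tnfsf9) and CD30L (Tnfsf8) each engage a receptor that T cells carry after activation. CD83 is a surface glycoprotein of mature dendritic cells that stabilises MHC class II and CD86.

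The 4 libraries held 5429 to 9206 barcodes and 57458026 to 80032966 unique molecular identifiers (UMIs, each counting a captured transcript once), and 25880 of 30504 barcodes were kept as cells. Median depth of the kept cells was 6909 to 8266 UMIs, and any pair of libraries shared 20 to 38 barcodes. Cells fell into 26 clusters, and each cell type below is called "like" its namesake because it was named from marker genes. The transcripts of the targeted genes gave little check of the labels: Aldh1a1, which encodes Raldh1, had 1, 0, 0 and 1 UMIs in control 1, control 2, DKO 1 and DKO 2. Aldh1a3, which encodes Raldh3, had 28, 9, 10 and 24 UMIs over all cells, and 9, 3, 0 and 0 in the collagen-rich tumour or fibroblast-like cells that passed the sort. The 3′ tags of these genes check nothing about a small edit upstream of them. In what follows 4 values in a row are always control 1, control 2, DKO 1 and DKO 2, and a level is in CPM (UMIs of the gene per 1000000 UMIs summed over the cells of that type in that library).

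All 10 gene identifiers matched GENCODE vM21, which gave positions on GRCm38 (mm10), and all are protein-coding. Cd274 (chr19:29367455-29388095, plus strand) and Pdcd1lg2 (chr19:29410919-29471161, plus strand) are neighbours, with 22.8 kb between the end of the former and the start of the latter. Cd80 (chr16:38455561-38496335, plus strand) and Cd86 (chr16:36603869-36666081, minus strand) share a chromosome. Cd40 lies at chr2:165055627-165072948 (plus strand), Cd83 at chr13:43784775-43803132 (plus strand) and Icosl at chr10:78069302-78083913 (plus strand). Of the TNF superfamily genes, Tnfsf4 lies at chr1:161395409-161418410 (plus strand), Tnfsf9 at chr17:57105325-57107757 (plus strand) and Tnfsf8 at chr4:63831308-63861347 (minus strand).

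RefSeq promoter sequences on GRCm38.p6 were at hand for 5 of the 10 genes (Cd274, Pdcd1lg2, Cd80, Icosl and Tnfsf8). The 250 bases before the RefSeq start are printed for the neighbours Cd274 (chr19:29367188-29367437) and Pdcd1lg2 (chr19:29410669-29410918), since the values of this pair were alike in some cell types and unlike in others. Capitals mark the only match to any motif searched.
Cd274: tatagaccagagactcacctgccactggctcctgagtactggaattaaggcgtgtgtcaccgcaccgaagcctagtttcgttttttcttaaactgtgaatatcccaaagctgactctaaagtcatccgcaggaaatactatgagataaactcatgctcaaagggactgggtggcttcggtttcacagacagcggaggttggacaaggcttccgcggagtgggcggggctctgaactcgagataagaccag
Pdcd1lg2: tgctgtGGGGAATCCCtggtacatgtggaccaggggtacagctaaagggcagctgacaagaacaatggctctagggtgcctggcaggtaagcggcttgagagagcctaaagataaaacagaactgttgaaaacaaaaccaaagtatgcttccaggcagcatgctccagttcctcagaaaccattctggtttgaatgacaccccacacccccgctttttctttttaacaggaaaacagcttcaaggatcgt
Motifs were searched on both strands. They were GGGA, 4 bases of any kind and CC, a loose NF-kB site that 17.6% of 32851 promoters of this length hold, GAAA, 2 bases of any kind and GAAA, a core of the interferon-stimulated response element (2.98%), and AGGTCA, the core site of retinoic acid receptors (14.0%). The match of Pdcd1lg2 is GGGGAATCCC, which begins 244 bases before the start and reads as the NF-kB site on the opposite strand. The window of Cd274 held no match, nor did that of Tnfsf8, while that of Cd80 held GGGAACCACC and that of Icosl GGGATGGGCC. A match is a run of letters and was not tested as a binding site.

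Each gene had its own order of cell types, drawn in the panels of levels by cell type. Cd274 was highest in neutrophil-like cells, at 1454, 1199, 1580 and 1052 CPM, followed by mature (Ccr7, Fscn1) dendritic-like cells at 445, 447, 546 and 597. These 2 ranges did not overlap over the 4 libraries. Below them came B-like cells (74.3 to 285, from 17 to 24 cells a library), regulatory T-like cells (141 to 185) and monocyte/macrophage-like cells (100 to 193), whose ranges overlapped. CD8 T-like cells had the lowest level of Cd274 among the lymphoid types, at 36.5, 24.6, 41.1 and 35.5 CPM, a range that overlapped that of NK-like cells (33.3 to 56.4). Monocyte/macrophage-like cells were 56.1% of the cells, had a median depth of 8997.5 to 13110 UMIs a library, and held 75.5% of all Cd274 UMIs, against 8.57% in dendritic-like cells and 5.62% in neutrophil-like cells, which were 3.03% of the cells.

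Pdcd1lg2 was ordered otherwise. It was highest in mature dendritic-like cells, at 213, 168, 262 and 286 CPM, and next in monocyte/macrophage-like cells, at 99.8, 109, 171 and 175, with overlapping ranges, although mature dendritic-like cells were higher within each library. Neutrophil-like cells, the top type for Cd274, had 45.3, 40.3, 58.6 and 22.6 CPM of Pdcd1lg2. T-like cells stayed between 35.5 and 41.2 CPM. Monocyte/macrophage-like cells held 85.8% of all Pdcd1lg2 UMIs.

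The CD28 and CTLA-4 ligands differed from each other in their carriers. Cd80 was highest in neutrophil-like cells, at 215, 121, 219 and 221 CPM, and in mature dendritic-like cells, at 107, 105, 128 and 129, with overlapping ranges. Cd86 was spread over antigen-presenting cells, with 243, 263, 266 and 217 CPM in mature dendritic-like cells, 127 to 139 in monocyte/macrophage-like cells and 0 to 34.0 in neutrophil-like cells. The neutrophil-like Cd86 value rested on 22 UMIs in all.

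Cd40 and Cd83 had their highest levels in mature dendritic-like cells, although monocyte/macrophage-like cells held 82.3% and 79.3% of their UMIs. Mature dendritic-like cells held 8.65% and 9.14%. Cd40 stood in them at 370, 259, 301 and 332 CPM, against 45.3 to 63.2 in monocyte/macrophage-like cells and at most 3.37 in each T-like type and NK-like cells. B-like cells (17 to 24 a library) had 55.8 to 90.2 CPM of Cd40 and 74.3 to 439 of Cd83. Cd83 stood at 806, 643, 844 and 894 CPM in mature dendritic-like cells. Type 1 dendritic-like cells (198 to 487 CPM) and type 2 dendritic-like cells (164 to 255), most of them in a group led by Mmp12 and F10 with 1 type 2 marker among its leading genes, came lower, and monocyte/macrophage-like cells lower again (79.3 to 162).

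Icosl was low in every type, with overlapping ranges in neutrophil-like cells (29.4 to 45.3 CPM) and dendritic-like cells (25.6 to 46.4), and with 9.57 to 13.7 CPM in monocyte/macrophage-like cells. Tnfsf4 was highest in mature dendritic-like cells, at 38.4, 50.9, 46.8 and 31.9 CPM from 130 UMIs, while the far more numerous monocyte/macrophage-like cells gave 16 UMIs. A second place of Tnfsf4 was the Gzmg and Gzmf cluster of NK-like cells, at 32.8, 14.4, 7.84 and 18.6 CPM. Tnfsf9 was highest in mature dendritic-like cells, at 61.5, 44.0, 62.9 and 101 CPM, and next in type 2 dendritic-like (16.1 to 37.9) and conventional CD4 T-like cells (21.3 to 27.9), whose ranges overlapped.

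Tnfsf8 was the lymphoid gene of the set. Conventional CD4 T-like cells had 383, 278, 320 and 348 CPM and held 58.0% of all its UMIs, although the gene took no part in the clustering. A small unnamed cluster of Cd3e-bearing cells led by Il13 had as much, at 316, 421, 139 and 390 CPM. CD8 T-like cells had 9.57, 10.7, 6.81 and 34.4 CPM, with DKO 2 apart, and regulatory T-like cells 2.88, 6.48, 54.7 and 1.03, with DKO 1 apart. Mature dendritic-like cells had 0 to 2 UMIs of Tnfsf8 a library and B-like cells 0.

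**Figure D1:**
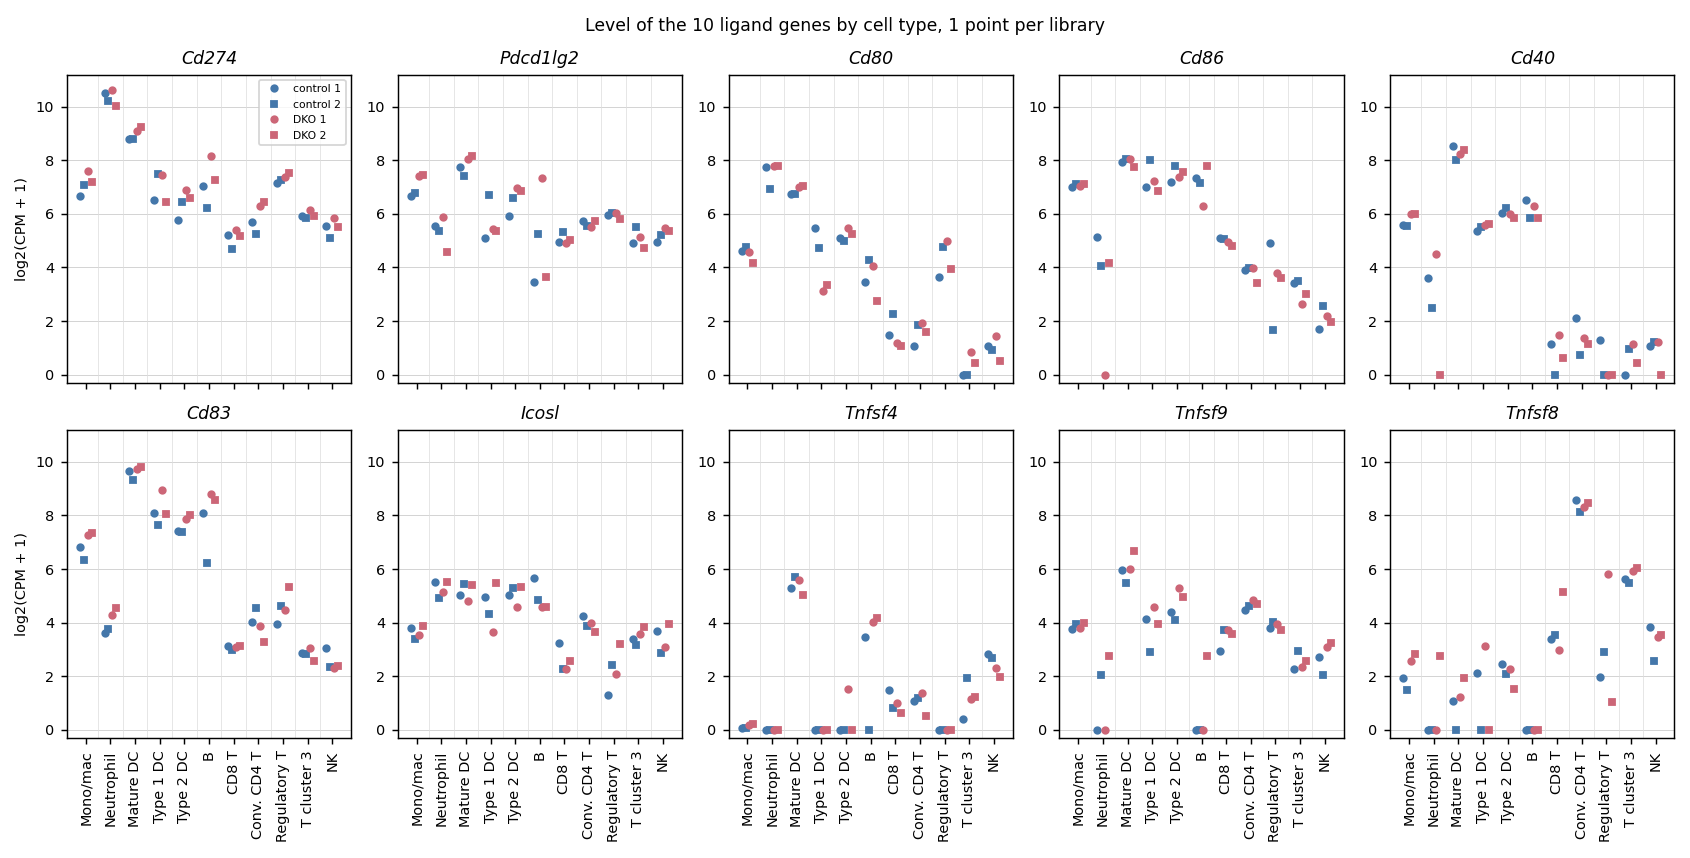
Each panel shows a gene, with its level as log2(CPM + 1) on the vertical axis and 11 cell types on the horizontal axis, and each point is a library (blue, control; red, DKO; circle, replicate 1; square, replicate 2). Cd274 peaks in neutrophil-like cells, Tnfsf8 in conventional CD4 T-like cells and Tnfsf4 in mature dendritic-like cells, and points of few cells (B, type 1 dendritic) scatter most.

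To assess whether these levels differed with the tumour genotype, UMI counts were summed per library and cell type, and DKO was compared with control by edgeR's quasi-likelihood test over all genes of that type (Benjamini-Hochberg, threshold 0.05). In monocyte/macrophage-like cells (2082 to 4866 a library) Pdcd1lg2, Cd83, Cd40 and Tnfsf8 were higher in both DKO libraries than in either control library, and so was Cd274, by 0.40 to 1.21 on the log2 scale, but none passed the test. Of the 10 genes, 9 passed the filter on low counts. Groups did not overlap in 6 of the 9, 5 of them higher in DKO, where 40.1% of all 12995 genes tested did not overlap and 21.5% were higher in this way. By edgeR 0 of 9 were called, where 0.0077% of all genes were, and 4 of 9 had an unadjusted p below 0.05, where 8.75% of all genes had. By DESeq2's Wald test on the same sums 3 of 9 passed, where 1.12% of all genes did. The median log2 change of the 9 was 0.40, beside 0.01 over all genes.

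Pdcd1lg2 in monocyte/macrophage-like cells was at 99.8, 109, 171 and 175 CPM, a mean of 105 ± 6.70 in control and 173 ± 2.68 in DKO (SD, n = 2). The groups were far apart against the spread within each. The log2 change was 0.69 ± 0.13 (standard error), with edgeR's adjusted p = 0.332 and DESeq2's adjusted p = 0.00187. Cd83 was at 111, 79.3, 154 and 162 CPM, with the control libraries further apart than the DKO libraries (log2 0.70 ± 0.16, adjusted p = 0.353 by edgeR and 0.0132 by DESeq2). Cd40 was at 47.4, 45.3, 63.2 and 62.2 CPM (log2 0.40 ± 0.11, edgeR adjusted p = 0.388). Cd274 was at 100, 135, 193 and 147 CPM, where control 2 and DKO 2 nearly met (log2 0.50 ± 0.23, edgeR adjusted p = 0.600). With 1 library left out the Cd274 value ranged from 0.25 to 0.78.

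Tnfsf8 was far lower in these cells, at 2.81, 1.81, 4.91 and 6.02 CPM from 93 to 212 UMIs a library. It was higher in both DKO libraries (log2 1.21 ± 0.25, adjusted p = 0.353 by edgeR and 0.0176 by DESeq2). With control 1 left out, a fit that leaves an arm of 1 library, its log2 change was 1.51. The 6 T-cell receptor and CD3 markers summed to 16.3, 16.3, 21.0 and 19.2 CPM in the monocyte/macrophage-like cells, and none was at 0. Tnfsf8 stood at 172, 111, 234 and 313 CPM per 1000 CPM of that list here, against 20.7, 16.1, 18.2 and 26.7 in T-like cells and 63.3, 39.9, 54.0 and 67.2 in conventional CD4 T-like cells, the main carriers. The ratio was higher in the monocyte/macrophage-like cells than in either in every library. The part of T-cell RNA in these Tnfsf8 counts was not tested.

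The remaining genes did not go the same way. Cd80 was at 23.8, 25.8, 22.8 and 16.7 CPM, lower in both DKO libraries (log2 -0.36 ± 0.18, edgeR adjusted p = 0.633, range -0.63 to -0.13 with 1 library left out). Cd86 was at 127, 139, 129 and 138 CPM, with overlapping groups (log2 -0.03 ± 0.13), and Tnfsf9 at 12.4, 14.3, 12.9 and 14.7 (log2 0.00 ± 0.15). Icosl was at 12.8, 9.57, 10.5 and 13.7 CPM (log2 0.07 ± 0.18), and Tnfsf4 failed the filter.

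**Figure D2:**
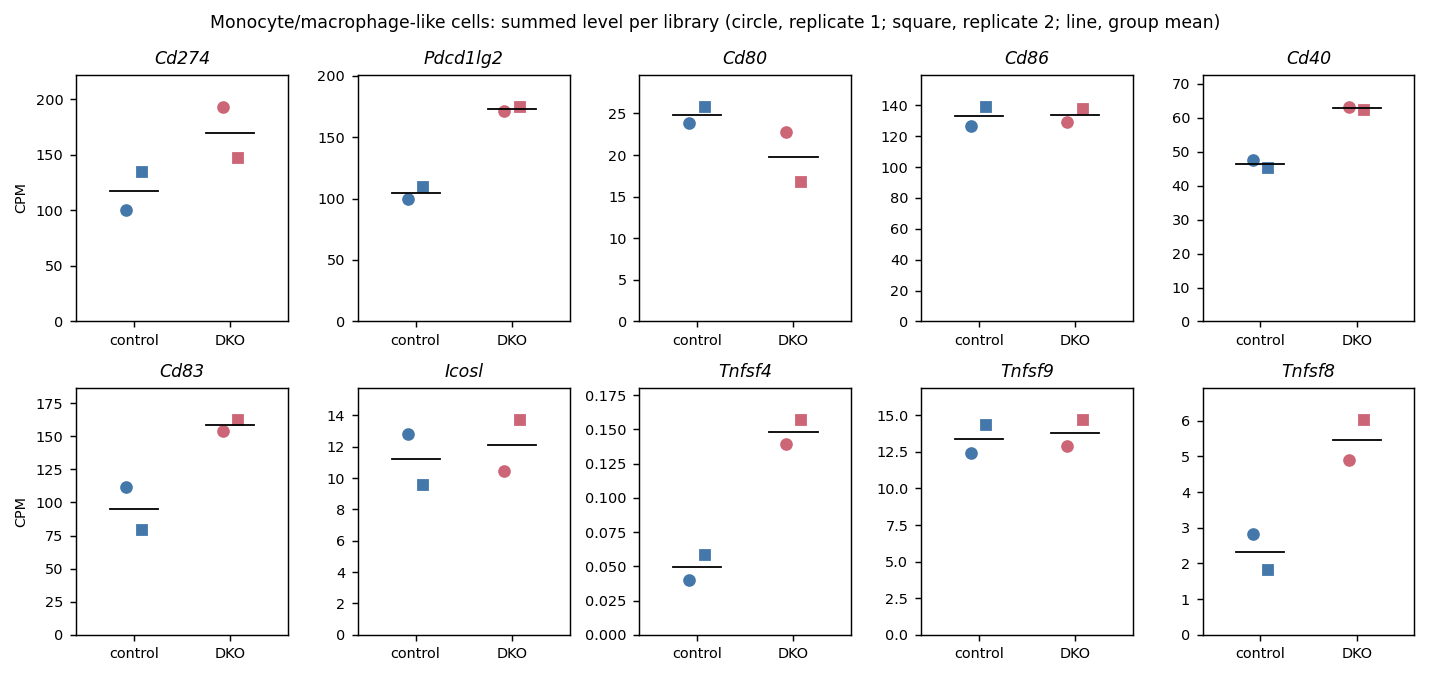
Each panel shows a gene in the monocyte/macrophage-like cells, with its CPM from 0 on the vertical axis; circles are replicate 1, squares replicate 2 and lines group means. Pdcd1lg2, Cd40 and Cd83 have DKO points above both control points, Cd86 and Tnfsf9 overlap, and the Tnfsf4 panel spans 2 to 6 UMIs a library.

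Depth and the makeup of the class moved with the groups. Monocyte/macrophage-like cells had a median of 9732, 8997.5, 11579 and 13110 UMIs. With each cell thinned to 2000 UMIs (4338, 4767, 3019 and 2040 cells), Pdcd1lg2 was detected in 16.1, 16.9, 25.1 and 28.6% of them, and unthinned in 46.1, 46.3, 66.2 and 70.2%. Exact 95% binomial intervals of the unthinned shares, which cover counting error only, ran from 44.6 to 47.7% in control and from 64.5 to 72.2% in DKO. In plasmacytoid dendritic-like cells (15 to 34 a library, median 7379 to 11132.5 UMIs) the unthinned share was 0 to 10.7%. Cd83 was detected in 17.7, 13.8, 24.4 and 24.1% of the thinned monocyte/macrophage-like cells and Cd40 in 8.97, 8.64, 12.2 and 11.9%. Cd274 was detected in 17.2, 23.0, 31.8 and 24.4%. At this equal depth both DKO libraries lay above both control libraries for each of the 4 genes. All 4 had the same order in CPM without thinning, as did 21.5% of all genes tested in these cells. How many of all genes keep this order at equal depth was not computed.

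The class held 9 clusters, and the DKO libraries had fewer cells in clusters 0 (Ccr2, Cdh1) and 1 (Pf4, Ccl7), at 42.0, 48.9, 25.1 and 31.3% of the class, and more in cluster 2 (Apol7c, Dnase1l3), at 10.8, 8.01, 22.7 and 29.2%. The most cells lay in cluster 0 in control 1, cluster 1 in control 2 and cluster 2 in both DKO libraries. Clusters 1, 2, 8, 10, 11, 13 and 14 had no marker of the class among their 10 leading genes. With finer clustering (resolution 2) a cluster led by Apol7c and H2-M2 (230, 55, 412 and 468 cells) was nearest to a dendritic name and stayed unnamed. Pdcd1lg2 was higher in both DKO libraries in 8 of the 9 clusters, a count that 1.56% of 9875 genes reached. In cluster 1 it was at 103, 114, 177 and 170 CPM, and in cluster 14, led by the interferon-induced genes Rsad2 and Ifit2, at 95.8, 94.5, 168 and 179. Its level in cluster 5 (Hp, Ifitm6) was the lowest of the 9, at 18.9, 22.0, 27.5 and 35.3. The exception was cluster 2, where the groups overlapped at 176, 231, 215 and 204 CPM, a level that the control libraries reached in no other cluster.

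Cd274 and Cd83 were each higher in both DKO libraries in 7 of 9 clusters, which 3.16% of genes reached in this number or more. Cd274 was at 177, 187, 453 and 271 CPM in cluster 5, and Cd83 there at 155, 78.8, 275 and 262, the cluster where Pdcd1lg2 was lowest. The top cluster of Cd274 was cluster 8 (Ly6i, Nos2), at 351, 363, 439 and 446 CPM, and its groups overlapped in clusters 2 and 14. Cd40 was higher in 5 of 9 (10.5% of genes reached as many), with 55.9, 50.2, 95.4 and 91.4 CPM in cluster 5. Cd80 was lower in both DKO libraries in 4 of 9 (15.9%), among them cluster 13 (Mmp12, Cxcl3) at 36.8, 33.3, 15.4 and 17.9, and Cd86 was split, higher in 3 and lower in 3.

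**Figure D3:**
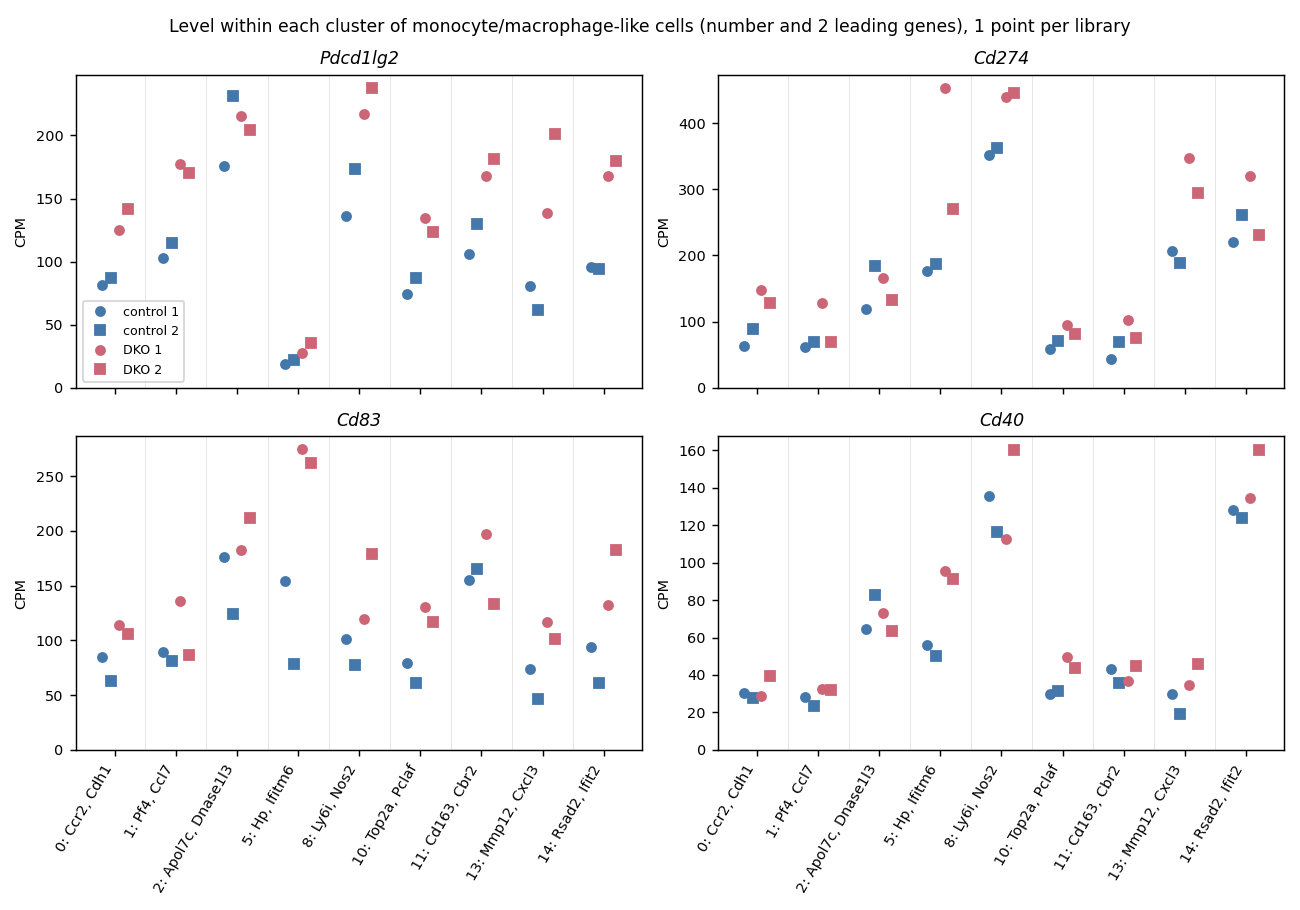
Each panel shows a gene in the 9 monocyte/macrophage-like clusters, with CPM from 0 on the vertical axis and a point per library (blue, control; red, DKO). For Pdcd1lg2 the DKO points lie above the control points in 8 clusters and among them in cluster 2, and for Cd274 and Cd83 in 7 clusters each.

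To see the levels without the shift in makeup, cluster levels were averaged with the same weights in every library. Pdcd1lg2 was then at 99.5, 116, 152 and 160 CPM, and the log2 ratio of the group means was 0.53, against 0.72 as found. Cd83 had 0.62 at the equal mix against 0.73 as found, Cd274 0.52 against 0.53, Cd40 0.25 against 0.44 and Tnfsf8 0.93 against 1.24. Each of these 5 genes kept both DKO libraries above both control libraries, and so did Tnfsf4, which rested on 16 UMIs. The share of all genes that do so at the equal mix was not computed. As found, it was 21.5%. Cd80 did not keep its order, at 28.5, 27.0, 29.5 and 22.1 CPM (log2 -0.11 against -0.33), and Cd86 stayed at 0.00. These values carry no test.

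Dendritic-like cells (254 to 339 a library) were the other antigen-presenting class. All 10 genes passed the filter and 0 were called, where 0.0103% of genes were. None had an unadjusted p below 0.05, where 8.49% of 9706 genes had, and DESeq2 called 0. The median log2 change of the 10 was -0.12, beside 0.01 over all genes. Pdcd1lg2 was at 106, 109, 149 and 130 CPM (log2 0.30 ± 0.15, edgeR adjusted p = 0.593) and Cd83 at 346, 305, 450 and 381 (log2 0.29 ± 0.16, adjusted p = 0.618), both with DKO above control. Cd40 went the other way, at 158, 141, 143 and 117 CPM with overlapping groups (log2 -0.27 ± 0.16, edgeR adjusted p = 0.646). With 1 library left out these values ranged from 0.14 to 0.46 for Pdcd1lg2, from 0.094 to 0.46 for Cd83 and from -0.49 to -0.077 for Cd40.

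In the mature dendritic-like cells alone (82 to 111 a library), 9 genes passed the filter and 0 were called, where 0.0161% of genes were. DESeq2 also called 0. Groups did not overlap in 5 of 9, all higher in DKO, where 39.3% of 6216 genes did not overlap and 25.6% were higher in this way. Pdcd1lg2, at 213, 168, 262 and 286 CPM, had the smallest p (log2 0.44 ± 0.20, unadjusted p = 0.0460, edgeR adjusted p = 0.624) and was the only 1 of 9 under 0.05 unadjusted, where 7.96% of genes were. Cd274 was at 445, 447, 546 and 597 CPM (log2 0.27 ± 0.18), Cd83 at 806, 643, 844 and 894 (log2 0.18 ± 0.19) and Tnfsf9 at 61.5, 44.0, 62.9 and 101 (log2 0.53 ± 0.29). With 1 library left out the log2 change ranged from 0.0028 to 0.36 for Cd83 and from 0.16 to 0.82 for Tnfsf9. Mature cells were 32.7, 39.4, 37.0 and 30.3% of the dendritic-like cells, with overlapping groups.

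Whether the response of dendritic-like cells differed from that of monocyte/macrophage-like cells was tested by the interaction of cell type and genotype in edgeR, with the library as block. None of the 10 genes was called, where 0.167% of 12548 genes were. Cd40 had the smallest p, with a log2 change 0.67 ± 0.15 lower on the dendritic side (value -0.67, edgeR adjusted p = 0.109). Without DKO 1 the value was -0.83 for Cd40 and -0.60 for Cd83. Both passed in that fit, which leaves an arm of 1 library and in which many more of all genes passed.

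Neutrophil-like cells, where Cd274 and Cd80 were highest, showed overlapping groups for Cd274 (1454, 1199, 1580 and 1052 CPM, log2 -0.16 ± 0.25, edgeR adjusted p = 0.900). Cd80 was at 215, 121, 219 and 221 CPM, where control 2 stood apart and control 1 lay close to both DKO libraries (log2 0.28 ± 0.30). Of the 4 genes that passed the filter, 0 were called, where 0.117% of 3427 genes were, 0 had an unadjusted p below 0.05, where 9.37% had, and DESeq2 called 0. Each library held 83 to 348 of these cells, and their median depth was 1705 UMIs, which limits the precision of these values.

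Among T-like cells as a whole all 10 genes passed the filter and 0 were called, where 0.00892% of 11208 genes were, and DESeq2 called 0. Cd274 was at 54.0, 48.3, 59.7 and 71.0 CPM, and was the only 1 with an unadjusted p below 0.05, where 14% of genes had one (log2 0.28 ± 0.12, edgeR adjusted p = 0.343). Pdcd1lg2 was at 35.6, 41.2, 35.5 and 37.1 CPM, with overlapping groups (log2 -0.15 ± 0.12, edgeR adjusted p = 0.617). Tnfsf8 was at 103, 87.6, 92.0 and 120 CPM (log2 0.08 ± 0.13), and its sign turned without control 2 (-0.018) and without DKO 2 (-0.090).

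Tests of the lymphoid cells called the interaction for 2 genes and the change of 1. The DKO change of Pdcd1lg2 differed between T-like and monocyte/macrophage-like cells, with an interaction of -0.84 ± 0.12 on the log2 scale (edgeR adjusted p = 0.0214), where 0.436% of 13308 genes were called. The change of Tnfsf8 differed as well, by -1.14 ± 0.16 (edgeR adjusted p = 0.0214). Over the 5 alternatives run, the adjusted p lay between 0.0172 and 0.0359 for Pdcd1lg2 and between 0.00635 and 0.0303 for Tnfsf8. For both genes the values in monocyte/macrophage-like cells were higher in DKO while those in T-like cells overlapped. Cd274, the neighbour of Pdcd1lg2, had -0.23 ± 0.32 (edgeR adjusted p = 0.906). The 8 myeloid transcripts of a fixed list summed to 1055, 1226, 714 and 778 CPM in T-like cells, lower in both DKO libraries. Pdcd1lg2 stood at 33.7, 33.6, 49.7 and 47.7 CPM per 1000 CPM of that list in T-like cells, and at 3.14, 3.57, 6.06 and 5.67 in monocyte/macrophage-like cells, higher in both DKO libraries in each. The part of these transcripts in the interaction was not tested.

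Cd274 rose in conventional CD4 T-like cells (313 to 505 a library), the only call that edgeR made of any of the 10 genes in the 10 cell types tested. It was at 50.5, 36.7, 77.2 and 86.7 CPM, from 90, 57, 196 and 212 UMIs. Both DKO libraries lay above both control libraries. The log2 change was 0.84 ± 0.18 (edgeR adjusted p = 0.0418), 1 call of 7 genes that passed the filter, where 0.267% of 8991 genes were called and 0.145% called higher. The call did not hold without control 2 (log2 0.66, edgeR adjusted p = 0.589), with DESeq2's size factors (0.83, edgeR adjusted p = 0.0623) or with doublets kept (0.71, edgeR adjusted p = 0.150). DESeq2's own test gave log2 0.83 and an unadjusted p of 0.00332, with no adjusted value.

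Markers of other cells were measured beside this change of Cd274. The 8 myeloid transcripts summed to 935, 869, 553 and 581 CPM in the conventional CD4 T-like cells, lower in both DKO libraries, and 0 of the 8 was at 0. Cd274 stood at 54.1, 42.2, 140 and 149 CPM per 1000 CPM of that list, against 3.15, 4.41, 6.85 and 4.77 in monocyte/macrophage-like cells. The 9 neutrophil markers summed to 138, 257, 241 and 153 CPM, with 2 or 3 of them at 0, and the 10 mature dendritic markers to 551, 556, 557 and 518, and neither sum separated the groups. Thinned to 2000 UMIs, 9.06, 7.24, 12.9 and 13.3% of the conventional CD4 T-like cells had a Cd274 UMI (unthinned 15.6, 16.0, 23.4 and 28.3%, median depth 4096.5 to 5181 UMIs). Plasmacytoid dendritic-like cells, at a greater depth, had 13.3 to 20% unthinned and 2.94 to 6.67% thinned. The part of RNA from other cells in the Cd274 change was not tested.

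Other genes of the conventional CD4 T-like cells stayed short of the threshold. Cd83 was at 15.2, 22.5, 13.8 and 8.59 CPM, lower in both DKO libraries (log2 -0.79 ± 0.32, edgeR adjusted p = 0.294). Without DKO 1, a fit that leaves an arm of 1 library, its log2 change was -1.21. Pdcd1lg2 was at 51.6, 46.3, 44.1 and 52.0 CPM, with overlapping groups (log2 -0.10 ± 0.18). Tnfsf8, at its highest level of all types here, also overlapped, at 383, 278, 320 and 348 CPM (log2 -0.05 ± 0.16, edgeR adjusted p = 0.944). The median log2 change of the 7 genes was -0.10, beside 0.00 over all genes.

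In CD8 T-like cells 6 genes passed the filter and 0 were called, where 0.95% of 8632 genes were, and 0 had an unadjusted p below 0.05, where 14.9% of genes had. Tnfsf8 in them turned with the library left out, from log2 0.72 to -0.62 without DKO 2 and to 1.64 without DKO 1. Each of these fits leaves an arm of 1 library. In regulatory T-like cells 4 passed and 0 were called, where 0.0435% of 6892 genes were, and 0 had an unadjusted p below 0.05, where 10.9% had. Cd274 was there at 141, 151, 164 and 185 CPM (log2 0.20 ± 0.19). In the T-like cluster 3 (Tcf7, Trdc, Klra1) 7 passed and 0 were called, where 0.341% of 9381 genes were, and 2 had an unadjusted p below 0.05, where 12% of genes had. Tnfsf8 there was at 47.9, 44.0, 60.3 and 63.9 CPM, higher in both DKO libraries (log2 0.36 ± 0.16, edgeR adjusted p = 0.343), and Cd86 at 9.82, 10.4, 5.23 and 6.99, lower in both (log2 -0.77 ± 0.35, edgeR adjusted p = 0.364). In NK-like cells 6 passed and 0 were called, where 0.0762% of 9191 genes were, and 0 had an unadjusted p below 0.05, where 9.52% of genes had. Tnfsf9 there was at 5.59, 3.15, 7.43 and 8.39 CPM (log2 0.80 ± 0.44, edgeR adjusted p = 0.564). In these 4 types DESeq2 called 0 of the genes to which it gave an adjusted p.

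**Figure D4:**
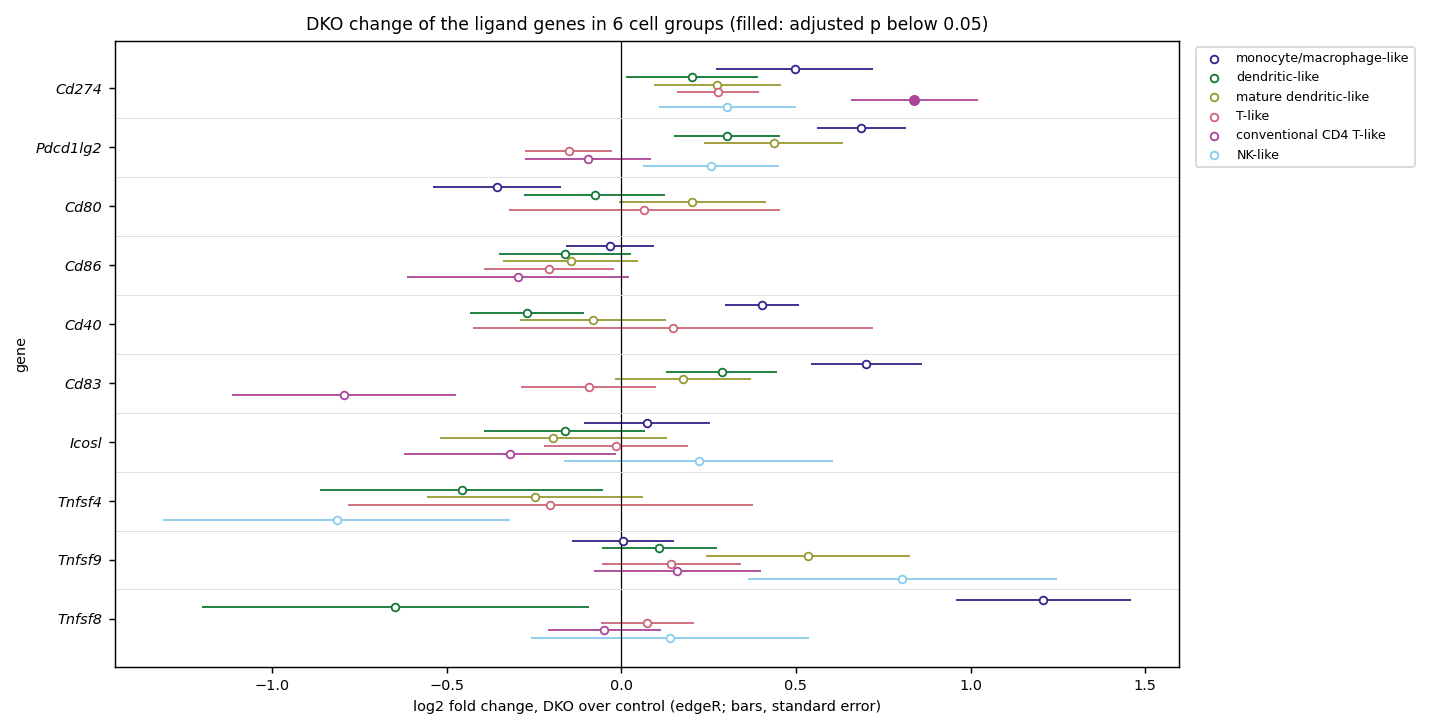
For each gene (vertical axis), points give the log2 fold change of DKO over control by edgeR in 6 cell groups (colours), with bars of 1 standard error, and a filled point has an adjusted p below 0.05. The only filled point is Cd274 in conventional CD4 T-like cells, and the monocyte/macrophage-like points lie right of 0 for Cd274, Pdcd1lg2, Cd40, Cd83 and Tnfsf8.

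Summed over all CD45+ cells, where the makeup of the sort also moves the level, 0 of 10 genes were called and 0 of 14412 genes were (0%). Here 3 of 10 had an unadjusted p below 0.05, where 12.9% of genes had. Tnfsf8 had log2 0.89 ± 0.23 (edgeR adjusted p = 0.267, DESeq2 0.0161), Cd83 0.50 ± 0.14 (edgeR adjusted p = 0.272) and Pdcd1lg2 0.47 ± 0.13 (edgeR adjusted p = 0.272). Cd80 had -0.41 ± 0.18 and Cd274 0.30 ± 0.23. Monocyte/macrophage-like cells, the main source of Cd274, Pdcd1lg2 and Cd83, made up 58.5, 65.6, 50.1 and 44.8% of the kept cells.

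The receptors of these ligands (Pdcd1, Cd28, Ctla4, Cd40lg, Icos, Tnfrsf4, Tnfrsf9 and Tnfrsf8) were followed in the lymphoid cells. Ctla4, the inhibitory receptor of CD80 and CD86, rose in CD8 T-like cells, from 336 and 328 CPM in control to 543 and 514 in DKO (log2 0.59 ± 0.13, edgeR adjusted p = 0.0238), 1 call of 7 receptors tested. This call did not hold without control 1 (edgeR adjusted p = 0.0514) or without control 2 (0.137). It also rose in the T-like cluster 3, from 79.9 and 110 CPM to 156 and 162 (log2 0.69 ± 0.14, edgeR adjusted p = 0.0172), a call lost without control 1 (0.115), without DKO 1 (0.393) and without DKO 2 (0.895). Over all T-like cells edgeR called 0 of 8 receptors, 3 had an unadjusted p below 0.05, where 14% of genes had one, and by DESeq2 there was 1 call, Ctla4, where 0.277% of genes were called. DESeq2 also called Ctla4 and Icos in CD8 T-like cells (0.776% of genes) and Ctla4 in conventional CD4 T-like cells (0.156%). Over all CD45+ cells it called 6 of 8 receptors (3.03% of genes), while T-like cells made up more of the kept cells in both DKO libraries, and the part of that makeup was not tested. In T-like cells 5 of the 8 were higher in both DKO libraries, where 32.5% of genes were. Among these Icos, the receptor of the ICOS ligand, was at 522, 485, 800 and 711 CPM (log2 0.52 ± 0.13, edgeR adjusted p = 0.258). NK-like cells had 0 calls of 6 by either tool, with 4 unadjusted p below 0.05, where 9.52% of genes had one. Cd28 was at 213, 159, 240 and 347 CPM (log2 0.58 ± 0.17, edgeR adjusted p = 0.295). Pdcd1, which encodes PD-1 and was picked out after its values were seen, went the other way in NK-like cells, at 7.83, 19.8, 4.81 and 0.839 CPM from 14, 44, 11 and 2 UMIs (log2 -2.41 ± 0.70, edgeR adjusted p = 0.363). It passed without control 1 and without DKO 1, fits that leave an arm of 1 library and in which many more of all genes passed. The Gzmg and Gzmf cluster made up 4.53, 15.3, 7.77 and 3.69% of the NK-like cells. The part of that cluster in the Pdcd1 value was not tested.

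Genes of the interferon gamma route, which is known to induce Cd274, and of NF-kB and CD40 signalling were followed as well. In monocyte/macrophage-like cells 0 of 10 interferon gamma route genes were called by either tool, 3 had an unadjusted p below 0.05 (8.75% of all genes had one), 9 had a log2 change above 0 and the median was 0.29, beside 0.01 over all genes. Irf1, an interferon-induced transcription factor, was at 146, 156, 204 and 205 CPM (log2 0.40 ± 0.13, edgeR adjusted p = 0.454). Of 16 NF-kB and CD40 signalling genes edgeR called 0 and DESeq2 1, where 1.12% of all genes were, 4 had an unadjusted p below 0.05, and the median was 0.03. Tnfaip3, which encodes the NF-kB inhibitor A20, was at 81.7, 79.0, 122 and 119 CPM (log2 0.55 ± 0.11, edgeR adjusted p = 0.353, DESeq2 0.0112), and Nfkb2 at 43.3, 46.7, 37.5 and 35.3, lower in both DKO libraries (log2 -0.34 ± 0.12).

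In the conventional CD4 T-like cells 1 of 9 interferon gamma route genes was called by edgeR, where 0.267% of all genes were. Of the 9, 6 were higher in both DKO libraries, where 28.3% of genes were. The call was Gbp2, an interferon-induced GTPase, at 60.6, 72.0, 109 and 145 CPM (log2 0.87 ± 0.17, edgeR adjusted p = 0.0347), which was lost without control 1 (0.0872). Irf1 was at 193, 156, 267 and 293 CPM (log2 0.62 ± 0.15, edgeR adjusted p = 0.0847). A link between these genes and the Cd274 level of the same cells was not tested. The 8 myeloid transcripts summed to 644, 734, 489 and 461 CPM in the CD8 T-like cells, lower in both DKO libraries, and their part in the call of Ctla4 was not tested. In the T-like cluster 3 Cxcl9, an interferon gamma-induced chemokine made mainly by myeloid cells, fell from 18.4 and 22.7 CPM to 10.5 and 5.66 (log2 -1.43 ± 0.30, edgeR adjusted p = 0.0172), a call lost without DKO 1 (0.246) and without DKO 2 (0.895). The 8 myeloid transcripts summed there to 1400, 1896, 1342 and 1155 CPM, and their part in the Cxcl9 value was not tested.

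Of 12 other ligands of this kind (among them Cd276, Vsir, Cd70, Pvr and Nectin2), 3 (neutrophil-like) to 9 (monocyte/macrophage-like) passed the filter in a type. Among those that passed, edgeR called 0 in any type described here, where at most 0.95% of genes were called. DESeq2 called 0 of those to which it gave an adjusted p. At most 2 in a type had an unadjusted p below 0.05 by edgeR (2 of 6 in conventional CD4 T-like cells, where 12.7% of genes had one). Cd70, the ligand of the costimulatory receptor CD27, had the smallest p in dendritic-like cells, at 9.80, 16.1, 6.87 and 5.28 CPM, lower in both DKO libraries (log2 -1.15 ± 0.36, edgeR adjusted p = 0.482). Cd276, which encodes B7-H3, was at 6.0, 4.50, 6.58 and 6.62 CPM in monocyte/macrophage-like cells (log2 0.30 ± 0.18, edgeR adjusted p = 0.664).

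Over the 26 clusters, the genes whose mean log2(CPM + 1) was most like that of each ligand were found by Pearson's r, as a description of clusters that share libraries and differ in depth. Cd40 and Cd83 were nearest to each other (r = 0.942). Cd86 was nearest to Tbc1d9 (0.927), with Cd40 (0.927) and Cd83 (0.924) next. Cd274 was nearest to Pde4b (0.893), a cAMP phosphodiesterase, and to Ccrl2 (0.889), which was also among the nearest of Cd80 (0.879, after Il1rn at 0.896). Pdcd1lg2 was nearest to Arrb2 (0.835) and Apol7c (0.812), the latter the leading gene of cluster 2, and its r with its neighbour Cd274 was 0.566. Tnfsf8 was nearest to B630019A10Rik (0.863), Tnfsf9 to Got1 (0.805), Icosl to Nup98 (0.813) and Tnfsf4 to Gm37422 (0.759).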

How the data were processed

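Live CD45+ cells of 4 libraries (2 control, 2 DKO) were measured. The deposited values were whole UMI counts per barcode and gene, per the file headers and values. Reads were handled with Cell Ranger (matrix version 3.1.0 per the file headers) and Seurat 3.1.0 and R 3.6.0 were used, per the submitters' processing notes, which name the builds mm10 and GRCh38. The 10 genes and all gene lists were chosen with earlier results of these data known.

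Barcodes needed at least 200 genes, 500 UMIs and at most 10% mitochondrial UMIs (27705 of 30504 passed). The highest Scrublet scores were removed at 0.8% per 1000 barcodes (678, 601, 415 and 236 marked, where the automatic threshold marked 108, 90, 105 and 41). Cells were clustered with scanpy 1.11.5 on 2000 variable genes, 30 components and 20 neighbours (Leiden, resolution 1), leaving out the 10 ligands, their receptors and the other ligands. Clusters were named from marker lists. That a whole cluster needs 2 leading markers for a dendritic name, and that Cd3e in 50% of cells bars NK and innate lymphoid names, was set after clusters were seen. Within the dendritic-like cells 1 leading marker was enough, and 172 type 2 and 42 mature cells rest on 1. Clusters 6 (low depth), 19 (Retnla, Lpl) and 21 (Il13) stayed unnamed, with 659, 357, 321 and 422 cells.

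Summed counts were tested with edgeR 4.0.16 (TMM, filterByExpr, robust quasi-likelihood) in R 4.3.3, in types with at least 50 cells in each library, and the scripts were tested on simulated data. DESeq2 1.42.0, other size factors, no filter, each library left out, replicate blocks, doublets kept, a 5% mitochondrial limit and resolution 2 were alternatives. Replicate numbers were not used to pair the libraries in the main fits. Named were all 10 ligands where tested and, of each list, every called gene and those with the 2 smallest p-values, described only for the cell types the text takes up; 1 such gene is not reported here. The genes most like a ligand needed 20 CPM in a cluster of 50 cells. No correction for free RNA was made.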

Additional observations from a re-analysis of the deposited data

Results flagged for a closer look

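The DKO change of 2 genes differed between T-like and monocyte/macrophage-like cells by the test of the interaction itself (edgeR, library as block). For Tnfsf8 the difference was -1.14 on the log2 scale (adjusted p = 0.0214), with 102.8, 87.6, 92.0 and 120 CPM in T-like cells and 2.81, 1.81, 4.91 and 6.02 in monocyte/macrophage-like cells, given as both control and then both DKO libraries. For Pdcd1lg2 it was -0.84 (adjusted p = 0.0214), with 35.6, 41.2, 35.5 and 37.1 CPM in T-like cells and 99.8, 109, 171 and 175 in monocyte/macrophage-like cells.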

How the results depend on the processing

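Of 618 values of single genes under alternatives, 555 kept their direction and their side of the threshold, 35 passed it where they had not, 25 no longer passed it and 3 turned sign. Of 139 counts of ligand genes called, 12 moved by more than 1.5 times. In monocyte/macrophage-like cells DESeq2's Wald test called 3 (Pdcd1lg2, Cd83 and Tnfsf8) and over all CD45+ cells 1 (Tnfsf8). Over all genes that test called 145 and 436, against 1 and 0. In conventional CD4 T-like cells the call of Cd274 was lost with DESeq2's size factors and with doublets kept (0 called in each). The calls there also changed with the library left out. DESeq2's Wald test gave Cd274 no adjusted p there and its count is left out. Leaving out a library also changed them in monocyte/macrophage-like, CD8 T-like and regulatory T-like cells (in the last, Tnfsf8 at log2 3.53 without DKO 2). The same held for the interaction of dendritic-like and monocyte/macrophage-like cells. Calls over all genes moved widely in these fits too, so such calls are not read as results about the ligand genes. Tnfsf8 turned sign in T-like cells (-0.018 without control 2, -0.090 without DKO 2, range -0.090 to 0.21) and in CD8 T-like cells (-0.62 without DKO 2, range -0.62 to 1.64). The causes were not tested. Of 50 log2 changes, 26 moved by over 1.5 times with some library left out. A library left out leaves an arm of 1, which is assumed to vary like the other group. Without control 1, edgeR called 170 of all genes in monocyte/macrophage-like cells, without the filter on low counts 49, and without DKO 1 or DKO 2 0. Conventional CD4 T-like calls over all genes went from 24 to 9 with DESeq2's size factors and to 137 without the filter. The T-like cluster 3 was not run with doublets kept or at resolution 2. Another scaling moved the median of all genes by less than 0.02 (log2).

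With the replicate block 0 ligand genes were called in monocyte/macrophage-like cells and 1 in conventional CD4 T-like cells (Cd274, edgeR adjusted p = 0.0302). Calls over all genes went from 1 to 4 of 12995 in the former and from 24 to 40 of 8991 in the latter. Ctla4 in CD8 T-like cells lost its call under the block (edgeR adjusted p = 0.168), where calls over all genes went from 82 to 16. Same-numbered libraries did not deviate together (correlations of -0.30 to -0.10). This cannot exclude a shared day or batch, and the labels do not say whether they share one. A crossed pairing, chosen after seeing the data, called 4 ligand genes in monocyte/macrophage-like cells and 2 over all CD45+ cells, and over all genes 265 and 515.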
